A study of Homo sapiens with 6 samples.

Results

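The genes described here are the abundant long noncoding RNA genes of BHT101 cells, a human line from an anaplastic thyroid carcinoma. A gene was a member if the deposited table typed it as a long noncoding RNA and its mean over the 6 libraries was at least 5 FPKM (fragments per kilobase, a level corrected for gene length and library depth). MALAT1, NEAT1, GAS5, ZFAS1, EPB41L4A-AS1 and the SNHG genes were left out by name. The rule found 197 members among 9731 long noncoding RNA genes and 32896 genes in all. The members were thus chosen by their mean FPKM over both groups, so their levels are a description with no test; the difference between the groups did not enter the rule.

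The data are 6 libraries, of which 3 came from BHT101 cells transfected with a control plasmid (control, n = 3) and 3 from BHT101 cells transfected to overexpress SK4 (SK4, n = 3), both with Lipofectamine and both harvested after 48 h. SK4 is another name of KCa3.1, a calcium-activated potassium channel encoded by KCNN4. The treatment label of control replicate 3 names the line as BHT102, while its cell line and source labels read BHT101. No label ties the replicates to separate cultures, so p-values measure the spread between these libraries, which may be technical. The expression is transient and from a plasmid, and the promoter that drives it is not given in the sources used here.

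A long noncoding RNA is a transcript with no long open reading frame that is usually made by RNA polymerase II, and many are spliced and polyadenylated like messenger RNAs. Some act as RNA (as a scaffold, a decoy for proteins or the core of an enzyme), others are precursors of small RNAs, and for many no function is known. Where such a gene lies matters for how it is read: a gene opposite a coding gene makes the reverse complement of part of that messenger RNA, a divergent gene starts head to head with a coding gene, and a gene that shares exons with a coding gene on the same strand is often a readthrough or retained-intron transcript.

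Most members were of this gene-associated kind. By GENCODE 29 (GRCh38), 191 of the 197 identifiers were found, and 142 members overlapped protein-coding exons on 1 strand or the other. In 70 members (35.5%), at least 50% of the exon bases lay opposite protein-coding exons. Another 33 lay opposite such exons over a smaller share, 39 shared exon bases with a coding gene on the same strand, 10 lay opposite an intron, 9 started divergently within 1000 bp of a coding gene, 7 had a coding gene within 5 kb with no overlap, 3 lay in or across an intron on the same strand, and 20 had no coding gene within 5 kb. The other 6 were not in that annotation. The 50% bound was chosen after the data had been seen. Clone names were carried by 142 members, and 2 members were typed as protein-coding in GENCODE 29.

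The 3 pairs that follow show what the opposite-strand members are. Each line is 60 bases, 5′ to 3′ on the named gene's own strand: the coding gene's line is protein-coding sequence and the member's line its reverse complement, and the 20 capitals mark the middle of the stretch, so the capitals of a pair are reverse complements. The pairs are the first 3 by level that share 60 coding bases, read from the GENCODE 29 transcripts (GRCh38).
RP5-940J5.9 (chr12:6537794-6537853, minus strand): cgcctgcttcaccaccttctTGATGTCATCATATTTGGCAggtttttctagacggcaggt
GAPDH (chr12:6537794-6537853, plus strand): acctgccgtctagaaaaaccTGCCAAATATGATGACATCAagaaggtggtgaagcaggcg
RP11-290D2.6 (chr13:45340039-45340098, plus strand): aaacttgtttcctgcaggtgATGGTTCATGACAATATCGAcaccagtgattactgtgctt
TPT1 (chr13:45340039-45340098, minus strand): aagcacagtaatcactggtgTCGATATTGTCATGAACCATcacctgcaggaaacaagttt
RP11-138I1.4 (chr17:16382152-16382211, minus strand): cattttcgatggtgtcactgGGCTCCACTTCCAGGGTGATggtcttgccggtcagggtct
UBB (chr17:16382152-16382211, plus strand): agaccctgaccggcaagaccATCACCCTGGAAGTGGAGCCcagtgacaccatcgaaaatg
The library protocol marks strand. Whether the counting used the strand is not given in the sources used here, so fragments of a member and of the gene opposite it cannot be told apart with certainty. For the 39 members that share exon bases with a coding gene on the same strand, strand cannot separate the fragments at all. Their levels and fold changes may therefore hold fragments of the coding gene, and how many was not tested.

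Depth was estimated from the steps of the FPKM values of 561 short single-exon genes, and came to between 29700000 fragments in control replicate 3 and 38500000 fragments in control replicate 2. In the library where a member had its fewest estimated fragments, the median over members was 245. In the library where it had its most, the median was 364. KCNN4 was at 8.31, 8.26 and 8.52 FPKM in the controls and at 184, 148 and 169 FPKM in the SK4 libraries, an 18.8-fold difference (log2 fold change 4.23, SE 0.08, limma adjusted p = 8.83e-07). The 2 groups did not overlap, and an exact permutation test of 3 against 3 cannot go below its p of 0.1. The epithelial markers were expressed (6 of 6, summed level 577 to 648 FPKM), with CDH1 the lowest at a mean of 1.72 FPKM. Of 6 mesenchymal and fibroblast markers, 2 reached 1 FPKM, VIM at a mean of 214 FPKM and LUM at 26.1 FPKM. None of 8 thyroid follicular markers reached 1 FPKM (summed level 0.48 to 0.57 FPKM in the controls and 0.54 to 0.67 FPKM in the SK4 libraries).

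The members' levels fell off steeply. The highest mean was 1647 FPKM, the median 9.19 FPKM and the lowest 5.01 FPKM. A level of 100 FPKM was reached by 7 members, 45 reached 20 FPKM, and 109 lay between 5 and 10 FPKM. All 197 passed the filter of 1 FPKM in 3 libraries. At the bound, RP11-323N12.5 (5.03), MYG1-AS1 (5.02) and GS1-98E2.1 (5.01 FPKM) were the last members, and RP11-285F7.2 (4.97), NUP153-AS1 (4.93) and RP11-317N12.1 (4.90 FPKM) stayed just outside. Together the members held between 2.01% (SK4 replicate 1) and 2.37% (control replicate 3) of the summed FPKM of a library. A mean of at least 3 FPKM would have given 336 members and a mean of at least 10 FPKM 88.

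**Figure D1:**
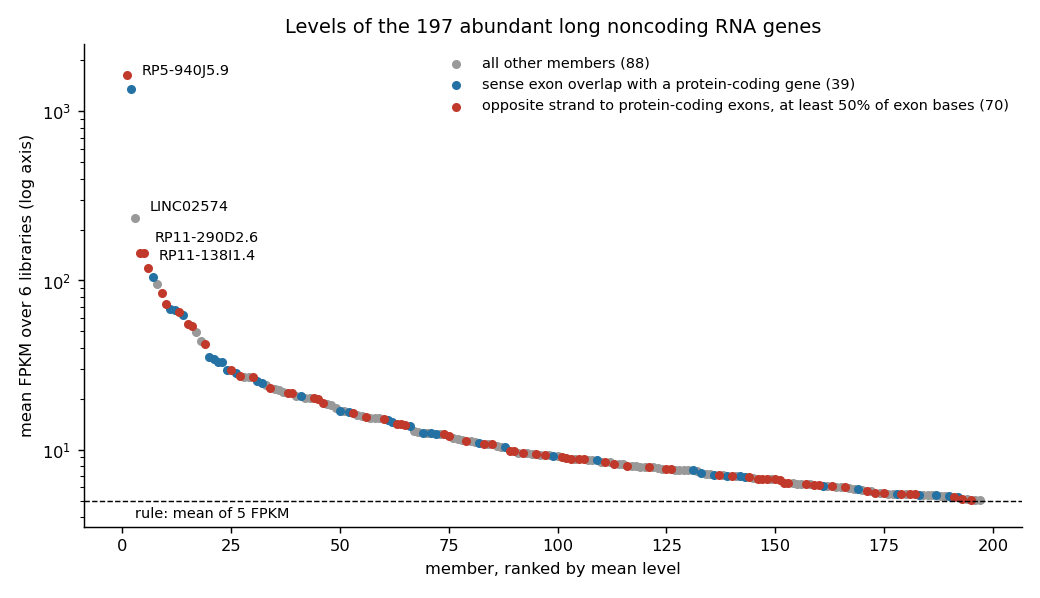
Mean FPKM over the 6 libraries (log axis) of the 197 members, ranked from highest to lowest and coloured by their position relative to protein-coding exons; the dashed line is the bound of 5 FPKM. RP5-940J5.9 is the highest, and opposite-strand and same-strand members occur along the whole range.

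Of the 10 members with the highest levels, 7 lay opposite coding exons. RP5-940J5.9 (chr12:6537794-6538370, minus strand, 422 exonic bases in 2 exons), wholly opposite exons of GAPDH, which encodes a glycolytic enzyme, led with 1496, 1476 and 2094 FPKM in the controls and 1507, 1719 and 1591 FPKM in the SK4 libraries. Control replicate 3 was the highest library and the groups overlapped. GAPDH itself ranged from 3634 FPKM (SK4 replicate 1) to 4112 FPKM (control replicate 3). The member stood at 50.9% of the coding gene in control replicate 3 and at 39.5% to 43.2% elsewhere. RP11-290D2.6 (chr13:45340039-45341183, plus strand), opposite TPT1, which encodes the translationally controlled tumour protein, measured 144, 142 and 170 FPKM in the controls and 121, 154 and 141 FPKM in the SK4 libraries. It was again highest in control replicate 3, with SK4 replicate 2 next. RP11-138I1.4 (chr17:16382152-16382669, minus strand), opposite the polyubiquitin gene UBB, measured 129, 131 and 180 FPKM in the controls and 133, 147 and 150 FPKM in the SK4 libraries. The ubiquitin units of UBB are near-identical repeats that other genes also carry, so its value is uncertain where the counting could split such reads.

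The other opposite-strand members among the 10 lie opposite genes of the cytoskeleton, the endoplasmic reticulum and the ribosome. RP11-161H23.5 lay opposite the tubulin gene TUBA1C and averaged 119 FPKM. CTC-425F1.4 lay opposite CALR, which encodes the chaperone calreticulin, and averaged 84.4 FPKM. RP11-498C9.2 lay opposite P4HB, which encodes protein disulfide isomerase, and averaged 72.5 FPKM. AC010761.8 overlapped exons of the ribosomal protein gene RPL23A over 17.2% of its exon bases and averaged 95.5 FPKM. Each of these 4 was highest in control replicate 3.

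Of the remaining members among the 10, LINC02574 and RP11-793H13.8 were even across libraries. LINC02574 (chr1:27660328-27662722, minus strand), on the same strand as IFI6 and within 5 kb of it, measured 224, 233 and 244 FPKM in the controls and 241, 232 and 226 FPKM in the SK4 libraries. IFI6 encodes an interferon-induced mitochondrial protein and averaged 1253 FPKM. RP11-793H13.8, which shares 69.8% of its exon bases with PCBP2, a gene for an RNA-binding protein, lay between 103 and 108 FPKM in the 6 libraries. The groups overlapped for both. PCBP2 averaged 26.6 FPKM, and fragments in the bases it shares with RP11-793H13.8 could come from either gene.

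No member was called between SK4 and control. KCNN4 was the only gene called among the 11139 tested (limma, adjusted p below 0.05, 0.00898% of the tested genes). An unadjusted p below 0.05 was found for 5 members, 2 higher and 3 lower in SK4, against 1.65% of all tested genes (1.06% higher and 0.593% lower). The groups did not overlap for 10 members, 4 higher and 6 lower, where 5.34% of all tested genes did not overlap (3.53% higher and 1.81% lower). Both counts are near the background. In such bulk samples, fewer cells that express a gene and less of its RNA per cell cannot be told apart. The members' median log2 fold change was -0.01, beside 0.01 over all tested genes. It was above 0 in 93 of 197 members, beside 6444 of the 11139 tested genes. The members' fold changes ran from -0.43 to 0.38 on the log2 scale. The 95% interval lay inside a 2-fold change for 197 of 197 members and inside a 1.5-fold change for 183, beside 99.6% and 96.8% of all tested genes.

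**Figure D2:**
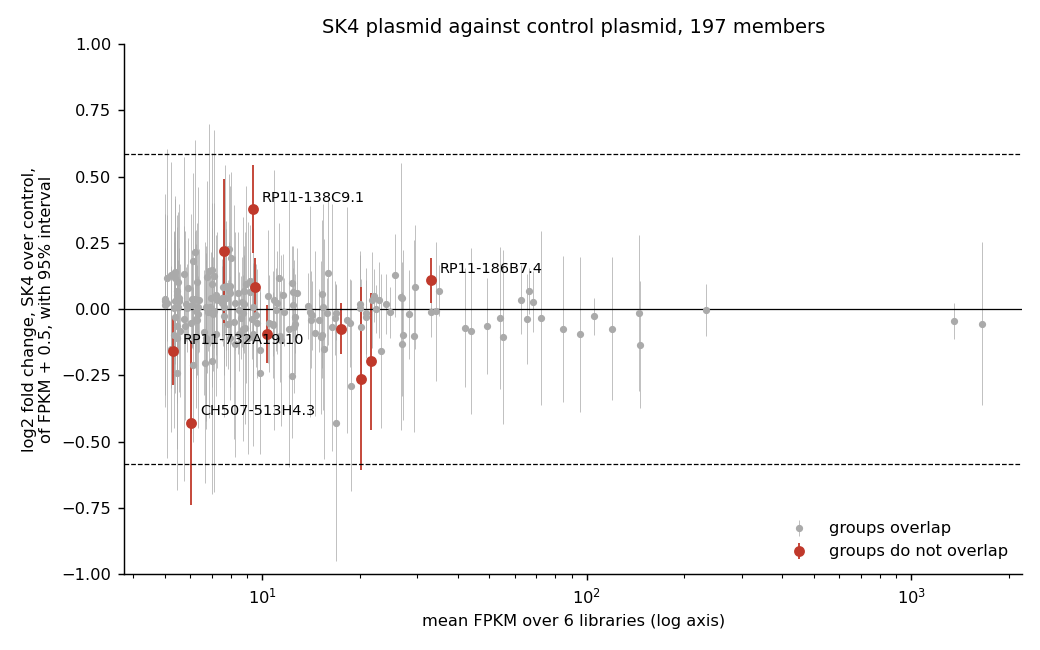
Log2 fold change of FPKM + 0.5 (SK4 over control) with its 95% limma interval against the mean FPKM (log axis) for the 197 members; dashed lines mark a 1.5-fold change. Red points are the 10 members whose groups do not overlap, and those with an unadjusted p below 0.05 are named; the estimates run from -0.43 to 0.38.

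The members whose groups did not overlap were small in effect. RP11-138C9.1 (chr17:47682417-47682683, minus strand, 267 bases in 1 exon) lies wholly opposite exons of KPNB1, which encodes importin beta, the carrier of nuclear import. It measured 8.44, 7.88 and 7.82 FPKM in the controls and 11.4, 9.66 and 10.8 FPKM in the SK4 libraries, each SK4 library above each control. Its log2 fold change was 0.38 (SE 0.07, unadjusted p = 0.000916, limma adjusted p = 1.00), on 62 to 111 fragments per library. KPNB1 did not separate the groups, with 23.8, 24.3 and 18.97 FPKM in the controls and 24.0, 20.6 and 22.4 FPKM in the SK4 libraries. The member was therefore at 32.4% to 41.2% of KPNB1 in the controls and at 47.0% to 48.3% in the SK4 libraries.

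RP11-186B7.4 (chr17:7572826-7582024, plus strand) shares exons with EIF4A1, which encodes a translation initiation helicase, and spans the small nucleolar RNA genes SNORA48, SNORA67 and SNORD10. It measured 31.7, 32.1 and 31.5 FPKM in the controls and 35.1, 34.5 and 33.4 FPKM in the SK4 libraries (log2 fold change 0.11, SE 0.04, unadjusted p = 0.0187, limma adjusted p = 1.00). The difference was larger than the spread within either group and amounted to 1.08-fold. KLHDC7B-DT, near KLHDC7B, measured 7.91, 7.50 and 5.65 FPKM in the controls and 8.46, 7.94 and 8.13 FPKM in the SK4 libraries, with control replicate 3 the lowest. HEIH, a gene with no coding gene within 5 kb, measured 9.25, 9.36 and 9.07 FPKM in the controls and 9.62, 10.0 and 9.76 FPKM in the SK4 libraries.

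Lower in each SK4 library than in each control were CH507-513H4.3, RP11-732A19.10, CTD-3148I10.15, RP11-401O9.4, CTD-2659N19.10 and RMRP. RP11-732A19.10 (chr11:6610883-6616594, minus strand) shares exons with the lysosomal peptidase gene TPP1 and measured 5.84, 5.47 and 5.62 FPKM in the controls and 5.02, 4.99 and 5.00 FPKM in the SK4 libraries (log2 fold change -0.16, SE 0.05, unadjusted p = 0.0218, limma adjusted p = 1.00). Its SK4 libraries were nearly equal. CTD-3148I10.15, which shares exons with FLT3LG, measured 10.6, 10.5 and 11.1 FPKM in the controls and 9.93, 10.0 and 10.1 FPKM in the SK4 libraries. RP11-401O9.4, opposite an intron of the myosin gene MYH13, measured 18.3, 18.1 and 17.6 FPKM in the controls and 17.4, 16.8 and 17.0 FPKM in the SK4 libraries. In both, the gap between the groups was narrow. CTD-2659N19.10, opposite the peroxiredoxin gene PRDX2, measured 21.0, 20.8 and 28.1 FPKM in the controls and 20.1, 19.6 and 20.4 FPKM in the SK4 libraries. Control replicates 1 and 2 lay close to the SK4 libraries, and control replicate 3 stood above. RP11-332K15.1, whose groups overlapped, was the third member with an unadjusted p below 0.05 and a lower level in SK4 (log2 fold change -0.25, SE 0.10, unadjusted p = 0.0347, limma adjusted p = 1.00).

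**Figure D3:**
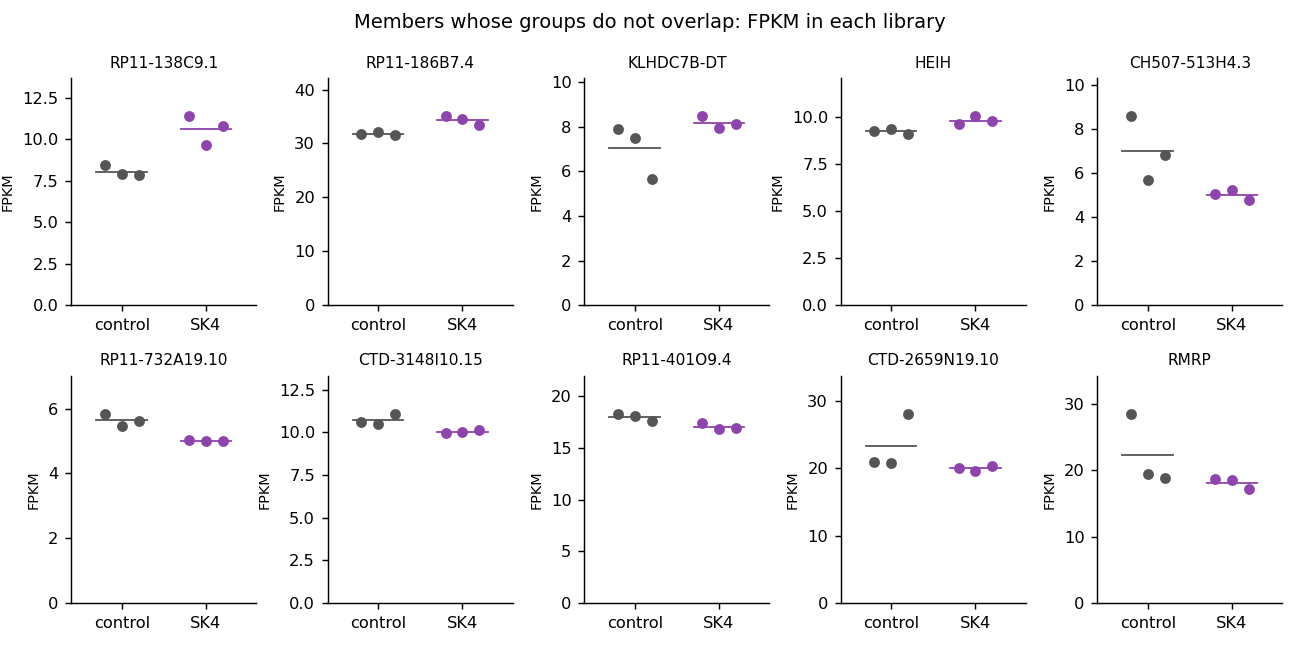
FPKM in each library (points, replicates 1 to 3 from left to right) and the group mean (line) for the 10 members whose groups do not overlap, each axis starting at 0. The separations are narrow in most panels, and in CTD-2659N19.10 and RMRP 1 control library stands above the rest of its group.

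The next 4 members carry the name of a structural RNA or lie at a gene for one. They were put together after their values were seen, so nothing is read from them as a group. RMRP (chr9:35657751-35658018, minus strand, 268 bases), the RNA of the endoribonuclease RNase MRP, which works in ribosomal RNA processing, measured 28.5, 19.4 and 18.9 FPKM in the controls and 18.7, 18.6 and 17.1 FPKM in the SK4 libraries. Control replicates 2 and 3 lay close to the SK4 libraries. The entry named RPPH1, after the RNA of the transfer RNA processing enzyme RNase P, carries an identifier that GENCODE 29 names AL355075.4, and measured 7.02, 7.04 and 5.65 FPKM in the controls and 6.66, 5.28 and 4.94 FPKM in the SK4 libraries. CH507-513H4.3 (chr21:8437629-8438551, minus strand) lies inside the interval that RefSeq (GRCh38.p14) gives to RNA18SN1, an 18S ribosomal RNA gene (chr21:8436876-8438744). It measured 8.60, 5.68 and 6.82 FPKM in the controls and 5.05, 5.24 and 4.80 FPKM in the SK4 libraries (log2 fold change -0.43, SE 0.13, unadjusted p = 0.0134, limma adjusted p = 1.00). Without control replicate 1, its highest library, the log2 fold change was -0.28, and without control replicate 2 it was -0.56. The ribosomal RNA genes are repeated, so its level is uncertain. Whether RNA18SN1 lies on the same strand as CH507-513H4.3 was not looked up, so the fragments counted for CH507-513H4.3 need not be 18S ribosomal RNA. RP11-596C23.6 (chr14:49861176-49864326, minus strand), named here after its values were seen, holds the signal recognition particle RNA gene RN7SL2 in an intron and measured 25.9, 20.3 and 12.9 FPKM in the controls and 14.6, 14.7 and 12.6 FPKM in the SK4 libraries. The libraries were made from polyadenylated RNA, and the RNAs of RNase MRP, RNase P, the signal recognition particle and the ribosome are mostly not polyadenylated. Whether the amount of such RNA that was captured differed between the libraries was not tested.

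Among the well-studied members, none separated the groups except RMRP. NORAD (chr20:36045622-36050960, minus strand, 5339 bases in 1 exon), which binds PUMILIO proteins and is known for a role in genome stability, measured 17.6, 16.9 and 11.7 FPKM in the controls and 17.7, 13.2 and 15.0 FPKM in the SK4 libraries, lowest in control replicate 3. FGD5-AS1, a spliced transcript of 5131 exonic bases, measured 10.2, 10.6 and 8.65 FPKM in the controls and 9.93, 8.65 and 9.65 FPKM in the SK4 libraries. PSMB8-AS1, which starts beside the immunoproteasome genes PSMB8 and PSMB9 and is interferon-inducible, measured 5.01, 4.96 and 6.06 FPKM in the controls and 5.50, 5.56 and 5.75 FPKM in the SK4 libraries. The groups overlapped for each of the 3, with log2 fold changes of 0.01 (SE 0.17), -0.05 (SE 0.09) and 0.07 (SE 0.08).

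MIR22HG (chr17:1711493-1717174, minus strand) is the precursor of microRNA miR-22, and measured 7.25, 7.70 and 6.41 FPKM in the controls and 7.73, 6.33 and 7.01 FPKM in the SK4 libraries. Its log2 fold change was -0.02 (SE 0.09), and the groups overlapped. The mature sequences it hosts (RefSeq, GRCh38.p14) are shown because the host level was measured here and the mature miRNAs were not; capitals mark the seed, bases 2 to 8.
hsa-miR-22-3p: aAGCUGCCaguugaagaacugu
hsa-miR-22-5p: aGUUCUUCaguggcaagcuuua

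The members differed by class in how much they varied between libraries. The 70 members opposite coding exons over at least 50% of their exon bases had a median coefficient of variation within groups of 15.7%, against 7.65% that counting alone would give at their estimated fragment numbers. The 39 members that share exons with a coding gene had 5.52% (4.13% from counting), the 20 members with no coding gene within 5 kb had 7.83% (4.32%), all tested genes had 7.49% (3.40%), and protein-coding genes of at least 5 FPKM had 4.78% (2.17%). The opposite-strand members were also short, with a median of 516 exonic bases, beside 1271 in the sense-overlapping ones. The 4 members with the largest variation were RP1-56K13.3 (opposite LASP1), CTD-2515O10.5 (opposite ALDOA), RP11-256P1.1 (opposite FAM53C) and RP11-498C9.13 (opposite PYCR1), all 4 of the opposite-strand kind. RP1-56K13.3 measured 6.35, 4.33 and 11.4 FPKM in the controls and 6.01, 7.27 and 7.14 FPKM in the SK4 libraries. RP11-498C9.13 measured 9.71, 10.0 and 18.0 FPKM in the controls and 10.4, 11.1 and 13.1 FPKM in the SK4 libraries. Both were highest in control replicate 3.

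Control replicate 3 stood apart in most members of this class. On the log2(FPKM + 0.5) scale, the 70 opposite-strand members were higher in control replicate 3 than the mean of the other 2 controls by a median of 0.42, a 34.1% difference, and 63 of the 70 were higher. The same difference was 0.04 in the 33 members opposite coding exons over a smaller share, of which 18 were higher, -0.02 in the 39 sense-overlapping members, -0.08 in the 20 members with no coding gene within 5 kb and -0.10 over all tested genes. The highest of the 6 libraries was control replicate 3 for 47 of the 70. SK4 replicate 2 stood above the other 2 SK4 libraries by a median of 0.19 in the same 70 members. The difference of control replicate 3 was also present in opposite-strand genes below the bound: among 163 other tested long noncoding RNA genes of this kind, control replicate 3 was higher by a median of 0.26, and 134 were higher. SK4 replicate 2 differed from the other 2 SK4 libraries by a median of only 0.02 in these 163 genes, with 88 higher. Control replicate 3 also had the fewest estimated fragments (29700000 fragments), and it is the library whose treatment label reads BHT102; the part of either in the difference was not tested.

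**Figure D4:**
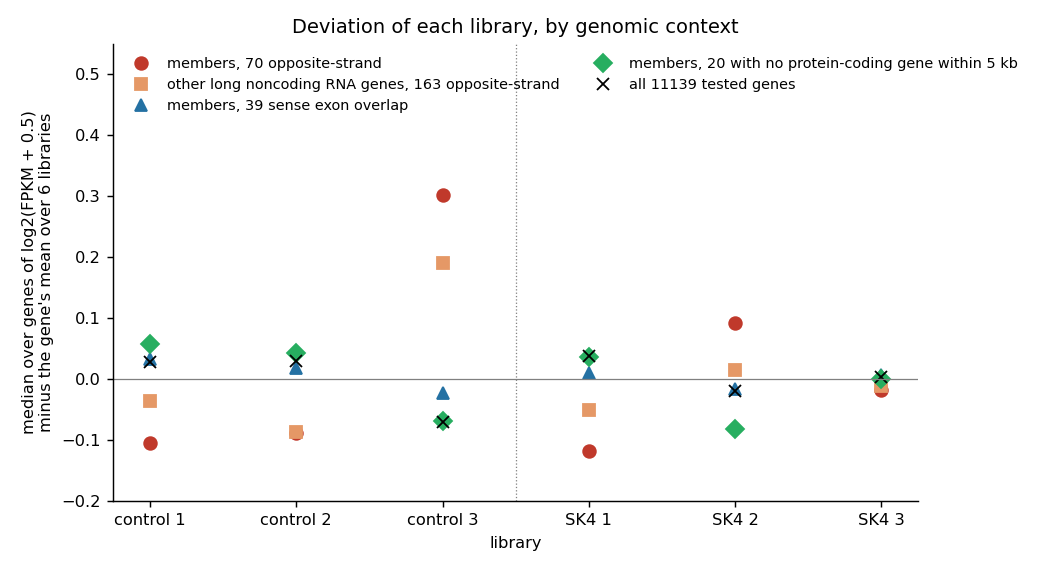
Median over the genes of a class of log2(FPKM + 0.5) in a library minus the gene's mean over the 6 libraries, with 1 symbol per class and library; control libraries are left of the dotted line and SK4 libraries right. Opposite-strand members reach 0.30 in control replicate 3 and 0.09 in SK4 replicate 2, where all tested genes lie at -0.07 and -0.02.

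The coding genes opposite these members did not show a difference of the members' size. For 68 of the 70 members the opposite gene was itself tested. Those genes differed between control replicate 3 and the other controls by a median of -0.01 on the log2 scale. The same median was -0.06 in protein-coding genes of at least 5 FPKM and -0.10 over all tested genes. The members stood at a median of 27.4%, 28.1% and 35.3% of the opposite gene's FPKM in control replicates 1, 2 and 3, and at 26.9%, 31.0% and 29.8% in SK4 replicates 1, 2 and 3. The share was highest in control replicate 3 for 49 of the 68 pairs, and above both other controls for 60. It lay between 5% and 80% in 62 pairs on average over the libraries. The lowest such average was 4.96% and the highest 753%, and the coding gene was higher than the member in 63 pairs. CTD-2515O10.5 stood at 261% to 529% of ALDOA, but that ALDOA entry averaged only 1.555 FPKM. Why the entry is so low was not tested. Across the 68 pairs, members opposite higher-expressed genes were themselves higher (Pearson's r = 0.77 on log2 mean FPKM, Spearman's rho = 0.70), a description over genes that share libraries, overlapping positions and the bound of 5 FPKM. In 158 such pairs of other tested long noncoding RNA genes, Pearson's r was 0.24 and Spearman's rho 0.28. The bound confines those genes to a narrow range, from 0.92 to 4.93 FPKM over the 163 of this kind. A narrow range lowers a correlation, so these values cannot be compared with those of the members.

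**Figure D5:**
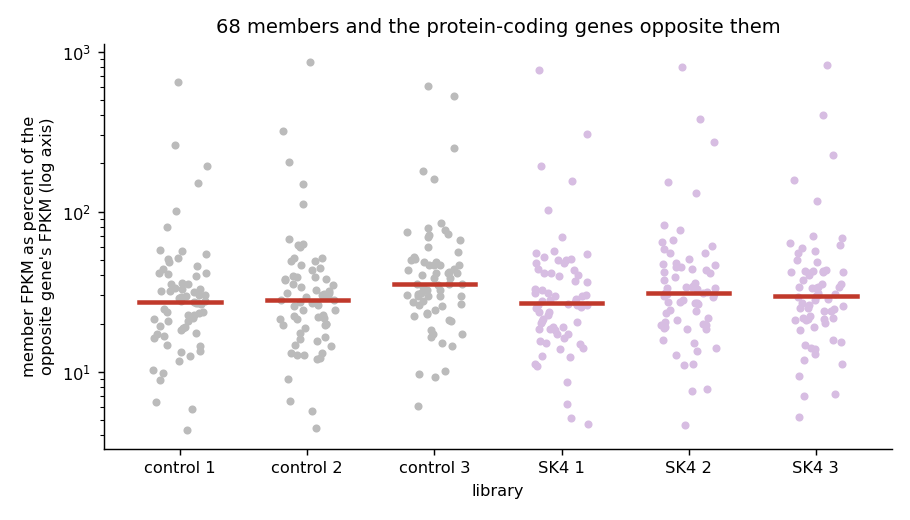
FPKM of a member as a percent of the FPKM of the protein-coding gene opposite it (log axis), for 68 pairs in each library; each point is 1 pair, spread sideways at random, and red lines are medians. The median is 35.3% in control replicate 3 and between 26.9% and 31.0% in the other 5 libraries.

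The comparison of the groups moves with that library. Without control replicate 3, the median log2 fold change of the 70 opposite-strand members went from -0.04 to 0.07, and 23 members rather than 5 had an unadjusted p below 0.05, 14 higher and 9 lower, where 3.76% of all tested genes did. Of the 14 higher ones, 11 were opposite-strand members. Without both control replicate 3 and SK4 replicate 2, a setting added after seeing the data, the class median was 0.02 and 23 members were below 0.05, where 5.07% of all tested genes were. No member was called by the adjusted p in either setting.

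The list of nuclear RNA decay genes, which holds the RNA exosome and its adaptors that remove antisense and promoter-associated transcripts, had 25 tested members, none of them with an adjusted or unadjusted limma p below 0.05, where 1.65% of all tested genes had an unadjusted one. Their log2 fold changes ran from -0.11 to 0.18 with a median of 0.01, and 17 were above 0, as were 6444 of the 11139 tested genes. At a share of 1.65%, lists of this length hold few or no genes with such a p, so their absence says nothing particular about this list. The list of RNA export genes had 22 tested members, 0 called and 0 with an unadjusted p below 0.05, with log2 fold changes from -0.06 to 0.20 and a median of 0.02. Among the well-studied long noncoding RNAs that lie outside and inside the members, 15 were tested and 0 were called. Of the miRNA host genes, 5 were tested, of the interferon and NF-kB regulated ones 3, of the p53 targets 3, of those studied in thyroid carcinoma 5 and of the hypoxia-induced ones 1. None of these had an adjusted or an unadjusted limma p below 0.05.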

How the data were processed

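RNA from 6 transfected BHT101 samples was captured on poly(A) beads and sequenced as 150 nt pairs with dUTP strand marking, per the labels' protocols. The submitters' processing notes name HISAT2 and GRCh38; not given in the sources used here are their versions, the counter, the annotation and the strand setting. The table that the authors deposited holds FPKM with 2 decimals, so depth was estimated from the value steps of short genes (99.5% to 100.0% whole within 0.1). Values were taken as log2(FPKM + 0.5), which understates changes of low genes. Genes that reached 1 FPKM in 3 or more libraries were tested with limma 3.58.1 (R 4.3.3, trend and robust prior, group as the term), with Benjamini-Hochberg adjustment over 11139 genes and a threshold of 0.05. The procedure was checked on simulated data. Positions came from GENCODE 29, which held 31742 of the 32896 identifiers.

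The members and lists were chosen with earlier results of these data known. Genes named were KCNN4, the 10 highest members, members in the role lists, up to 6 members per direction whose groups did not overlap, the 4 with the largest variation, those next to the bound, and some coding partners. The labels do not say whether same-numbered libraries share a culture or day, so replicate numbers were not used as pairs in the main fit. Alternatives are given in the closing section. A result on 1 of the 10 highest members is not reported here.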

Additional observations from a re-analysis of the deposited data

How the results depend on the processing

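KCNN4 remained the only gene called under each planned setting (pseudocount, filter, scaling, library weights, prior variance, replicate block and each library left out), and 4 genes were called without both control replicate 3 and SK4 replicate 2, a setting added after seeing the data. No member was called under any setting run. The number of members with an unadjusted p below 0.05 was 5, became 32 with library weights (18 higher and 14 lower, with 8.12% of all tested genes below 0.05) and 23 when those 2 libraries were left out together (5.07%), and ran from 4 to 23 when 1 library was left out. It was 8 without control replicate 2, 9 without SK4 replicate 2 and 23 without control replicate 3, where 1.90%, 1.88% and 3.76% of all tested genes were below 0.05, against 1.65% with all libraries. The weights limma gave to control replicate 3 and SK4 replicate 2 were 0.23 and 0.50, the lowest of the 6. The members' median log2 fold change ran from -0.024 (without control replicate 1) to 0.020 (without control replicate 3), and 0.009 with library weights. The median of the opposite-strand members ran from -0.11 to 0.07 with 1 library left out and was 0.04 with library weights. With the replicate block, 1 gene was called and 4 members had an unadjusted p below 0.05. Each gene's deviations from its group mean correlated between same-numbered libraries at 0.31, -0.41 and -0.15. These values cannot show whether such libraries shared a culture or day, and the numbers were not taken as pairs. The number of members was 336 with a bound of 3 FPKM and 88 with 10 FPKM.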
